A study of Mus musculus with 12 samples.

Results

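The maxillary prominence is the paired facial swelling, made of neural crest mesenchyme under surface and oral epithelium, that forms the upper jaw, the cheek, most of the secondary palate and the upper molars. In the mouse its mesenchyme is still a dividing, patterned tissue with few specialised cells around embryonic day 12.5, and by day 14.5 the palatal shelves are rising and fusing while bone, muscle, skin and tooth germs are being laid down. Bone arises here directly from mesenchyme under the transcription factors RUNX2 and SP7, muscle from migrating mesoderm under MYOD1 and MYOG, and skin by stratification of a single-layered epithelium that holds the p63 protein. The 3 libraries from E14.5 were compared with the 3 from E12.5, out of 12 libraries at 4 stages (3 each at E10.5, E11.5, E12.5 and E14.5).

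All libraries are poly-A RNA of the maxillary prominence of wild-type C57BL/6 mouse embryos, untreated, and none carries an engineered allele. Each came from 7 littermates pooled, with 2 µg of RNA taken into a library whose preparation does not mark the strand. The labels describe them as biological replicates without saying that they came from separate litters, and the p-values therefore speak only of the spread among the libraries at hand, which may be technical. The E14.5 samples are described apart from the younger ones, and the title of its replicate 1 names 2 portions, which were used as 1 library; the stage and a separate preparation cannot be told apart.

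The 6 libraries held 28294837 to 33941430 counts in genes, and 25265 to 26914 genes had a count in each. Correlations of log2 levels were 0.981 to 0.987 within E12.5, 0.989 to 0.991 within E14.5 and 0.934 to 0.946 between them. Levels are given in CPM, the reads of a gene relative to the scaled size of its library. Markers of the labelled tissue were present in every library, with the mesenchymal gene Prrx1 at 507 CPM at E12.5 and 435 CPM at E14.5 and the epithelial gene Cdh1 at 122 and 106 CPM. The E12.5 libraries varied in genes of the forebrain and olfactory region. Their summed level over 21 genes ran from 139.5 to 300.9 CPM, lowest in replicate 1 and highest in replicate 2. They also varied in summed muscle structural genes (277.3 to 608.2 CPM). The values of Xist ran from 9.84 to 2395 CPM and those of 4 Y-linked genes together from 0 to 235.5 CPM over the 6 libraries, with Xist nearly absent from E12.5 replicate 2 and no Y-linked count in E14.5 replicate 1.

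Of 18365 genes with enough counts to test, 4233 (23.0%) were higher at E14.5 and 4413 (24.0%) lower and 8646 (47.1%) were either, at an adjusted p under 0.05 (edgeR's quasi-likelihood test with Benjamini-Hochberg adjustment). At least a 2-fold difference beside that p was reached by 2033 genes (11.1%) that were higher and by 1036 (5.64%) that were lower. Changes of that size were more often rises, and the median over all tested genes was -0.0095 on the log2 scale. All 3 E14.5 libraries lay above all 3 of E12.5 for 5343 genes (29.1%) and below them for 5010 (27.3%). These shares are the background for every count of members below. The lists were chosen with earlier results of these data known, so a count set against these shares is a description and not a test. A gene without a count at E12.5 passed the count filter through other stages and could only be called higher. Where 0 members of a list are given in a direction by edgeR, 0 also reached an unadjusted p under 0.05 in that direction, and DESeq2 and limma-voom called 0 too.

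**Figure D1:**
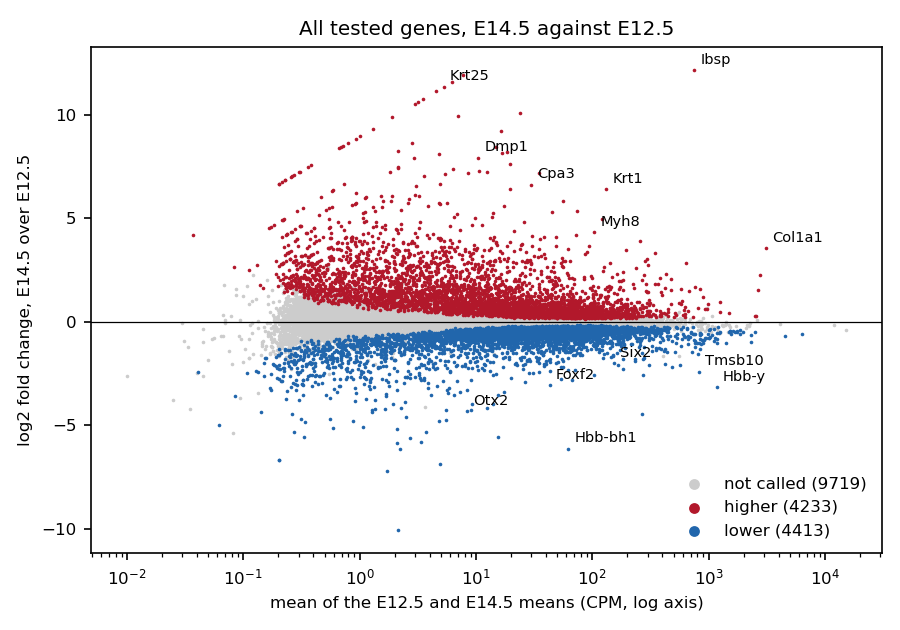
Each point is 1 of the 18365 tested genes. The horizontal log axis is the mean of the 2 stage means in CPM, the vertical axis the log2 fold change of E14.5 over E12.5, with genes called higher and lower in colour. The rises extend to 12.17 (Ibsp), and those of at least 2-fold number 2033 against 1036 falls.

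The 10 genes with the largest called rises, counting only genes whose higher stage reached 5 CPM and whose stages did not overlap, were Ibsp (bone sialoprotein), Pla2g2f (a secreted phospholipase), Tpsb2 (a mast cell tryptase), Krt25, Krt71 and Krt73 (inner root sheath keratins), Lipi (a phospholipase), Slc36a2 (a transporter of small amino acids), Sdr16c6 (a short-chain dehydrogenase) and Dmkn (dermokine, of the suprabasal skin). Of these 10, 7 had no count in any E12.5 library. Such genes were set against an assumed 3 counts in the 3 E12.5 libraries together, a bound that covers counting error only. By that bound Pla2g2f was at least 515-fold higher, Tpsb2 at least 412-fold, Lipi at least 303-fold, Slc36a2 at least 234-fold and Sdr16c6 at least 210.2-fold. The group therefore spans bone, skin, hair and mast cells. The 10 largest falls included Afp, the fetal serum protein, Hbb-bh1 and Hba-x (embryonic globins), Fezf1, Neurod1, Sp8, Otx2 and Insm1 (all transcription factors of neural or olfactory tissue) and Rn7sk, a small nuclear RNA without a poly-A tail. Rn7sk stood at 9.04, 11.8 and 0.958 CPM at E12.5 and 0.276, 0.224 and 0.0516 at E14.5, and limma-voom, an alternative test, did not call it (adjusted p = 0.0632). In absolute terms the largest gains were of collagens and other matrix genes (Col1a1, Col1a2, Col3a1, Ibsp, Col6a3, Sparc, Postn and Col5a2), and the largest losses were of short or mitochondrial messages and an embryonic globin (mt-Cytb, mt-Nd1, Hbb-y, Ptma, Tmsb10, mt-Nd4, Ppia and mt-Nd2).

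A trend with transcript length runs through the comparison and touches the counts of falls. Among 91 protein-coding genes whose principal transcript is at most 500 bases long, the median log2 difference was -1.08 and 60.4% were lower, against 6.59% higher. Among 789 genes over 8000 bases the median was 0.22, with 40.7% higher and 10.8% lower. The shortest class deviated from the gene means by -1.145, -1.145 and -1.222 in the E14.5 libraries and by 0.502, 0.493 and -0.224 in those of E12.5, so that E12.5 replicate 3 lay between the others and E14.5. With this trend removed by a smooth curve, an alternative chosen after seeing the data, 5382 genes were higher and 3303 lower. They included 3979 (94.0%) of the genes called higher and 2916 (66.1%) of those called lower without it. The part of the trend in each single fall was not tested, and falls that lost their call with it removed are named below where they are described.

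**Figure D2:**
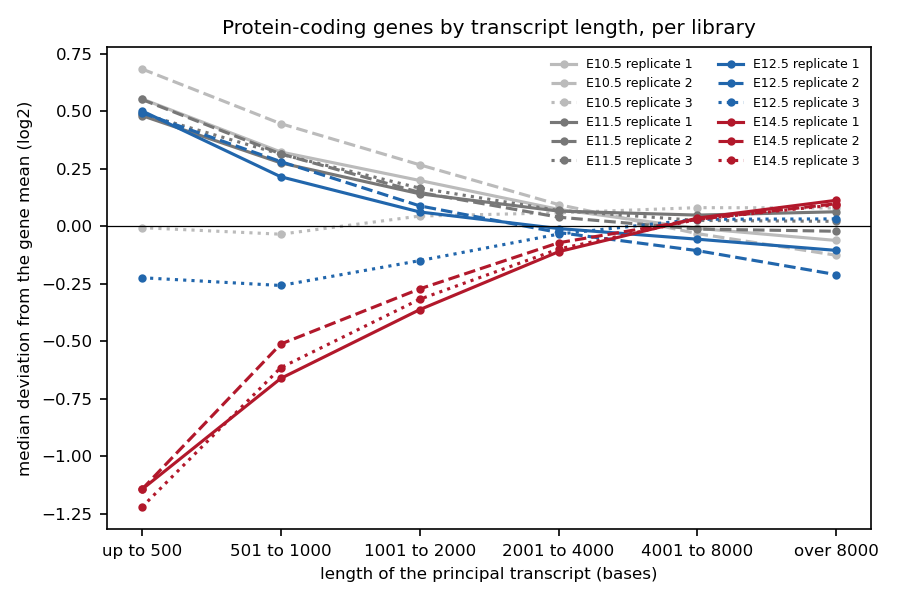
Median deviation of protein-coding genes from their mean over the 12 libraries (vertical axis, log2), by length class of the principal transcript (horizontal axis), with 1 line a library. The E14.5 libraries sit lowest for the shortest class, at -1.145 to -1.222, and highest for the class over 8000 bases.

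The genes were also read in 40 lists, each of 1 cell type, tissue or pathway of the developing face. In the plot of all of them, muscle structure, bone matrix, mast cells, hair follicle, suprabasal epithelium and melanocytes stood highest, with medians of 2.43 to 3.07, and forebrain and liver genes lowest.

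**Figure D3:**
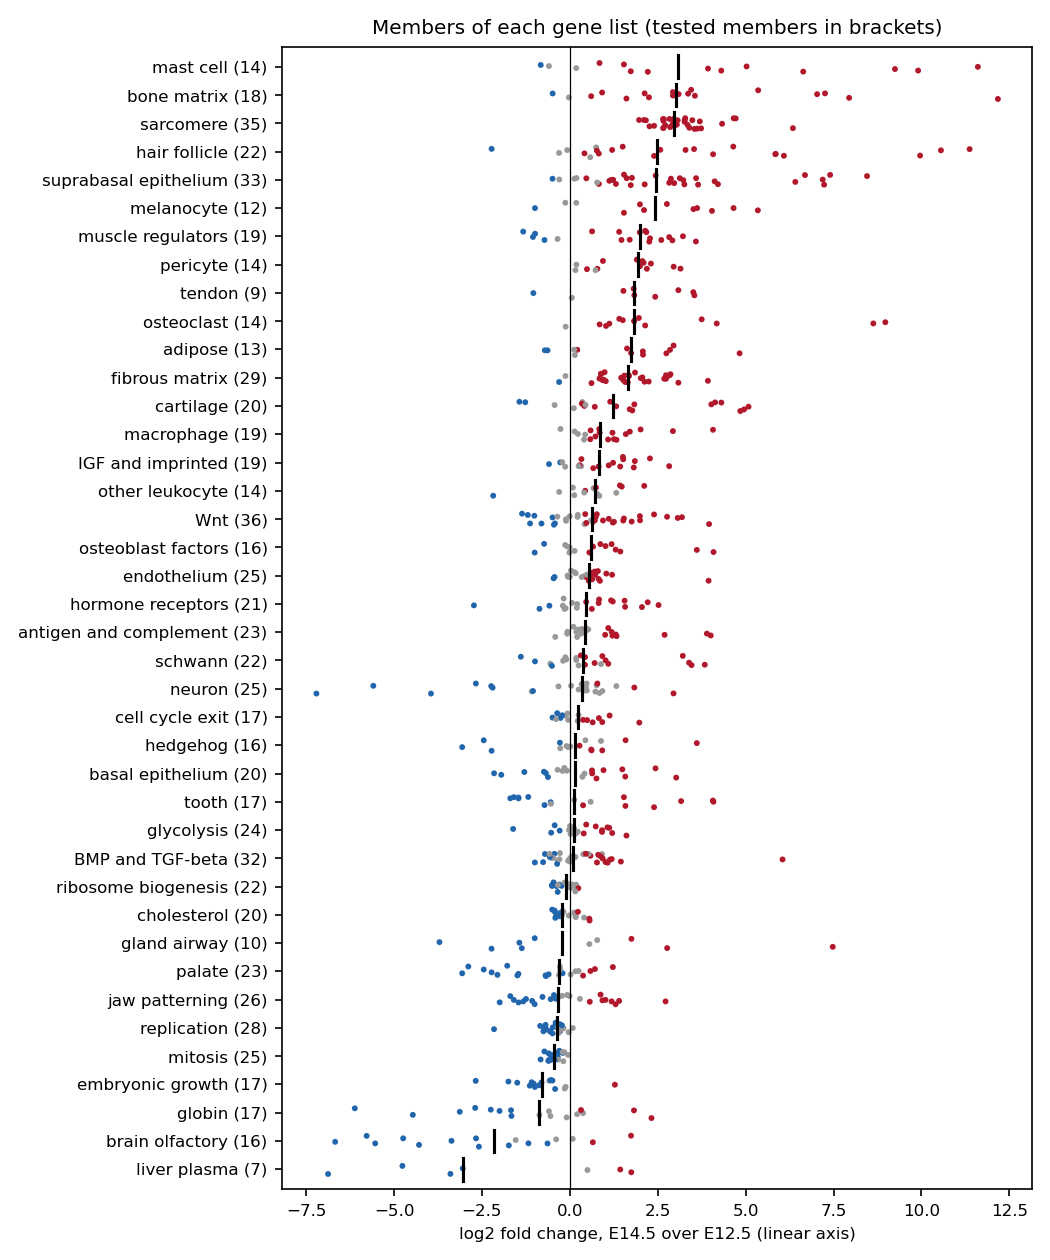
Log2 fold change of E14.5 over E12.5 (horizontal axis) for each tested member of the gene lists (rows, with the number of tested members), coloured by call, with the list median as a bar. The mast cell median of 3.07 is the highest and the liver and plasma median of -3.05 the lowest.

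Bone matrix genes rose, some from a trace and some from a level that was already high. Of 18 tested genes of the osteoblast's matrix and mineral, 16 were higher at E14.5 and 1 lower, with a median log2 difference of 3.01. The summed level of all 20 listed genes went from 1732 to 2294 CPM at E12.5 to 12430 to 15690 CPM at E14.5. In these bulk samples more cells of a type and more RNA per cell cannot be told apart. Ibsp, an acidic glycoprotein that binds mineral, lies at chr5:104299171-104311469 on the plus strand (GRCm38) with a principal transcript of 2068 bases. It stood at 0.0312, 0.428 and 0.494 CPM in the E12.5 libraries and at 1604, 1706 and 1209 CPM in those of E14.5. The E14.5 values were thus a main message of the tissue and the E12.5 values a trace, and the log2 difference was 12.17 (SE 0.33, adjusted p = 1.53e-10), the largest of any gene tested. Dmp1, the matrix protein of late osteoblasts and osteocytes, went from 0.0312, 0.183 and 0.029 CPM to 27.5, 12.3 and 22.6 CPM, with the lowest E14.5 value in replicate 2. Its log2 difference was 7.94 (SE 0.50, adjusted p = 1.34e-07).

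The enzymes of mineral formation rose with these matrix proteins. Alpl, the alkaline phosphatase that frees phosphate, went from 8.64, 22.0 and 17.4 CPM to 174, 173 and 147 CPM. Smpd3, a sphingomyelinase needed for mineralisation, went from 1.12, 5.38 and 3.98 CPM to 151, 155 and 124 CPM. Both groups of 3 were far apart, with log2 differences of 3.36 and 5.35. Phex, an endopeptidase that breaks down inhibitors of mineral, reached 38.9 ± 3.52 CPM from 3.56 ± 0.224 (SD, n = 3 here and below), and Omd (osteomodulin) 28.1 ± 0.803 from 3.29 ± 1.17. Mmp13, a collagenase of osteoblasts and late chondrocytes, reached 7.10 from 0.0494 CPM. Mepe, a marker of osteocytes, had no count at E12.5 and was at least 20.3-fold higher, though DESeq2 did not call it (adjusted p = 0.212). A pair of transport genes did otherwise: Slc20a1, a phosphate transporter, fell from 47.2 to 33.6 CPM (log2 difference -0.49, adjusted p = 0.00105), and Ank, which exports pyrophosphate, stood at 29.4 and 28.8 CPM (adjusted p = 0.872). The osteocalcin genes Bglap and Bglap2 had too few counts to test.

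The regulators of bone formation had smaller differences than the matrix genes. Of 16 osteoblast transcription factors and signals, 9 were higher and 2 lower (median 0.61). Sp7, a zinc finger factor required for osteoblast commitment, went from 3.65, 6.96 and 5.72 CPM to 94.4, 101 and 82.4 CPM without overlap, a log2 difference of 4.08 (SE 0.21, adjusted p = 3.04e-08). Runx2, which acts before it, stood at 47.3, 53.5 and 66.6 CPM and then at 86.7, 89.2 and 88.4 CPM. The log2 difference of Runx2 was 0.66 (adjusted p = 0.0293), and the call was lost without any 1 of the 6 libraries except E12.5 replicate 3 (adjusted p = 0.0629 to 0.112), by DESeq2 (adjusted p = 0.119) and with the length trend removed (adjusted p = 0.0521). Twist1, which holds RUNX2 in check, fell from 198 to 98.7 CPM. Dlx5, an activator of bone genes, rose from 17.9 to 36.1 CPM.

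The promoter of Dmp1 is shown as a hand-picked example of the letters TGTGGT, or ACCACA on the other strand, which RUNX2 is known to bind. This is the stretch of 250 bases before the second of 2 starts listed in RefSeq (GRCm38.p6, chr5:104202367-104202616, plus strand), 5′ to 3′, with the match in capitals.
Dmp1: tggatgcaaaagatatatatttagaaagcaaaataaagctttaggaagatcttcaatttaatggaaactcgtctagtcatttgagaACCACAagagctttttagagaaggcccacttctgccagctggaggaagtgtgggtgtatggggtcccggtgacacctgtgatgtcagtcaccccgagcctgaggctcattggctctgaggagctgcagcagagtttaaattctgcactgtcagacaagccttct
In 250-base promoters, 7 of 17 bone matrix genes (41.2%) held either form of the letters at any listed start, against 15.9% of 27025 genes with a promoter. Genes with several starts had more chances of a match. The match in Dmp1 lies 164 bases before the start. A match is a description of the sequence and was not tested as a binding site.

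Genes of the osteoclast, the bone-resorbing cell that forms by fusion of macrophage precursors, also rose. Of 14 tested, 13 were higher and 0 lower (median 1.83). Mmp9, its gelatinase, went from 1.81, 3.88 and 3.89 CPM to 59.2, 60.0 and 54.7 CPM. Atp6v0d2, a proton pump subunit, had 0, 0.0305 and 0 CPM at E12.5 and 5.45, 6.21 and 5.08 CPM at E14.5. Dcstamp, the protein needed for cell fusion, had no count in the E12.5 libraries and was at least 66.5-fold higher, and its relative Ocstamp reached 1.95 from 0.141 CPM. Both fusion genes were thus near or at 0 before and present in all 3 later libraries. Ctsk, the collagen-cleaving cathepsin, went from 17.7, 21.7 and 16.5 CPM to 89.4, 80.4 and 77.0 CPM. The signals that make osteoclasts were higher too: Csf1 reached 25.0 ± 2.31 from 8.79 ± 0.893 CPM, the RANK ligand Tnfsf11 3.82 ± 0.652 from 0.978 ± 0.459 CPM and its receptor Tnfrsf11a 4.81 ± 0.504 from 1.81 ± 0.583 CPM. The decoy receptor that blocks that ligand, Tnfrsf11b, stood at 6.40 ± 1.35 and 5.89 ± 0.669 CPM (adjusted p = 0.609).

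**Figure D4:**
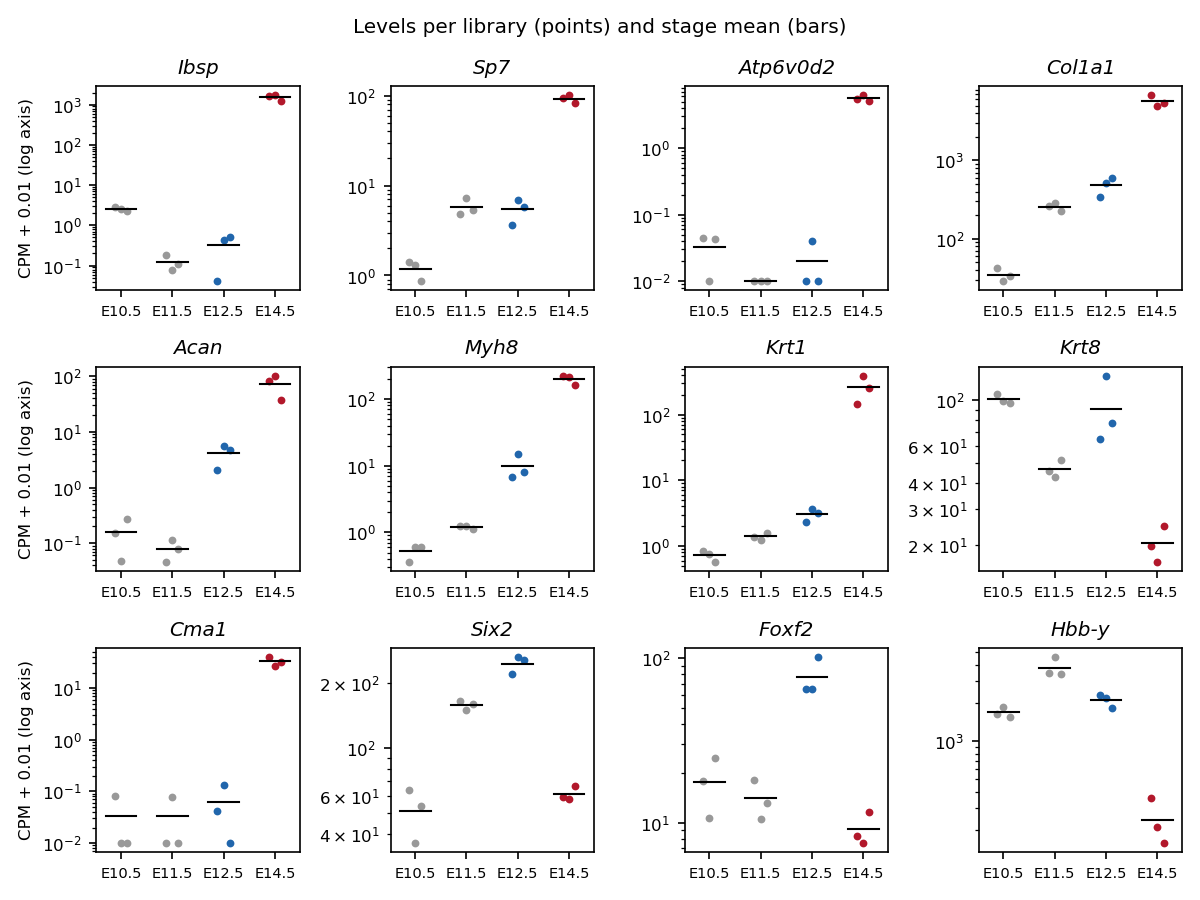
Levels of 12 genes in each library (points, CPM + 0.01 on a log axis) at the 4 stages, with the stage mean as a bar. Ibsp, Sp7, Atp6v0d2, Col1a1, Acan, Myh8, Krt1 and Cma1 lie higher in all 3 E14.5 libraries than in all 3 E12.5 libraries, and Krt8, Six2, Foxf2 and Hbb-y lie lower.

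The fibrous matrix expanded across nearly all its genes. Type I and type III collagen messages together (Col1a1, Col1a2 and Col3a1) took 0.299 ± 0.037% of gene counts at E12.5 and 1.60 ± 0.26% at E14.5. Of 29 interstitial matrix genes tested, Col3a1 among them, 27 were higher and 1 lower (median 1.65). Col1a1, the main chain of bone and skin collagen, went from 343, 508 and 603 CPM to 6771, 4956 and 5368 CPM (log2 difference 3.56, SE 0.22). Its partner Col1a2 went from 958 to 4555 CPM, a log2 difference of 2.25 (SE 0.14). Dcn (decorin), a proteoglycan that spaces collagen fibrils, went from 20.9, 48.0 and 26.0 CPM to 532, 439.7 and 471 CPM, a log2 difference of 3.93. Eln, the elastin gene, reached 523 from 78.6 CPM, the collagen VI chain Col6a3 1118 from 157 CPM and the crosslinking enzyme Lox 429 from 106 CPM. Postn (periostin) rose by 0.96 on the log2 scale and Sparc, a collagen-binding protein, by 1.61. The exceptions were Mfap4, an elastic fibre protein, at 295 and 239 CPM, whose fall was not called with the length trend removed (adjusted p = 0.571), and Fbln1 at 209.7 and 192 CPM (adjusted p = 0.295).

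Most cartilage genes rose, while Sox9 and Sox5 fell. Of 20 tested, 14 were higher and 2 lower (median 1.23), and without E12.5 replicate 1 the 14 became 9. Col11a2, a fibrillar collagen of cartilage and bone, went from 5.24, 9.56 and 7.81 CPM to 276, 256 and 171 CPM (log2 difference 4.95, SE 0.27). Acan, the large proteoglycan aggrecan, went from 2.09, 5.68 and 4.73 CPM to 83.1, 99.8 and 36.8 CPM. E14.5 replicate 3 held less than the others of both, though it stayed above every E12.5 library. Matn1, a cartilage matrix protein, reached 26.7 ± 1.86 from 0.783 ± 0.47 CPM. Col2a1, the collagen that defines cartilage, stood at 342, 295 and 481 CPM and then at 586, 588 and 258 CPM. Its groups overlapped, with E14.5 replicate 3 lowest of all 6, and it was not called (log2 difference 0.36, SE 0.28, adjusted p = 0.318). The structural genes Col9a1, Matn4 and Ucma were not called either (adjusted p = 0.075, 0.797 and 0.553). Sox9 and Sox5, factors of the chondrocyte programme, fell from 76.1 to 28.1 CPM and from 28.8 to 11.9 CPM. Their partner Sox6 was higher, at 59.0 from 46.5 CPM (log2 difference 0.34, adjusted p = 0.0311), a call lost without E12.5 replicate 1 or 2 or E14.5 replicate 2 or 3 (adjusted p = 0.0854 to 0.143) and with the length trend removed (adjusted p = 0.125).

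Tendon genes rose apart from the progenitor factor Scx and Mkx. Of 9 tested, 7 were higher and 1 lower (median 1.83). Scx, the factor of tendon progenitors, fell from 43.4, 37.9 and 35.3 CPM to 18.9, 18.5 and 19.3 CPM without overlap. Tnmd (tenomodulin), a product of maturing tendon cells, rose from 0.873, 1.80 and 1.22 CPM to 11.9, 17.6 and 15.0 CPM. Thbs4, a thrombospondin of tendon and muscle attachment, rose from 2.59, 7.51 and 6.24 CPM to 73.9, 65.9 and 51.1 CPM. The progenitor factor thus stood lower and both matrix genes higher in every E14.5 library. Egr1, a transcription factor responsive to load, reached 31.4 from 5.83 CPM, and Mkx, a second tendon factor, stood at 22.5 and 23.4 CPM (adjusted p = 0.749).

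Muscle structural genes rose. All 35 tested members of the contractile apparatus and its synapse were called higher, by 1.97 to 6.34 on the log2 scale (median 2.96). Tnnc2 and Chrne had too few counts to test. The share of gene counts of all 37 listed members went from 0.0427 ± 0.0187% to 0.373 ± 0.043%. Myh3, the embryonic myosin heavy chain, went from 41.3, 90.8 and 54.0 CPM to 679, 688 and 527 CPM. Myh8, the perinatal form, went from 6.77, 14.9 and 8.02 CPM to 219, 216 and 163 CPM, a log2 difference of 4.33 (SE 0.24) beside 3.35 (SE 0.26) for Myh3. Titin (Ttn), the elastic filament, reached 360.1 ± 58.8 from 32.2 ± 9.21 CPM and Acta1, skeletal actin, 175 ± 15.5 from 13.5 ± 7.63 CPM. Per length of transcript, Myh3 made up 81.5%, 81.6% and 82.0% of 6 sarcomeric myosin heavy chains in the E12.5 libraries and 72.3%, 72.5% and 73.1% in those of E14.5. Myh8 made up 13.1%, 13.2% and 11.9% and then 22.8%, 22.3% and 22.1%. The embryonic form therefore stayed the main one, with a smaller share than before. The slow chain Myh7 went from 4.86 ± 0.52% to 3.46 ± 0.25% and the adult fast chain Myh1 from 0.604 ± 0.13% to 1.33 ± 0.087%.

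Most regulators of muscle rose as well. Of 19 tested regulators of muscle, 14 were higher and 4 lower (median 1.99). Myog, which drives terminal differentiation, went from 17.0, 29.6 and 16.4 CPM to 108, 105 and 92.2 CPM. Myod1, which commits the myoblast, went from 7.61, 10.6 and 10.05 CPM to 38.9, 38.7 and 34.6 CPM. Both were higher in every E14.5 library, by 2.28 and 1.99 on the log2 scale. Mymk, the membrane protein that fuses myoblasts, reached 23.1 from 3.05 CPM. Six4 and Eya1, which act upstream of MYOD1 and which head mesenchyme also uses, went down. Six4 went from 50.6, 43.2 and 42.7 CPM to 21.8, 23.2 and 20.9 CPM (log2 difference -1.05, adjusted p = 2.2e-06), and Eya1 from 68.7 to 34.6 CPM.

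The promoters of 3 of these genes carry the E-box CAGCTG, the letters that MYOD1 and MYOG are known to favour, which read the same on both strands. Chrna1 and Chrng encode the alpha and gamma subunits of the fetal acetylcholine receptor and Mylpf the fast light chain of myosin. They are given as the 250 bases before the start in RefSeq (GRCm38.p6), 5′ to 3′ on the strand of the gene, for Chrna1 at chr2:73580339-73580588 (minus strand), for Chrng at chr1:87205561-87205810 (plus strand) and for Mylpf at chr7:127211358-127211607 (plus strand), with the E-box in capitals.
Chrna1: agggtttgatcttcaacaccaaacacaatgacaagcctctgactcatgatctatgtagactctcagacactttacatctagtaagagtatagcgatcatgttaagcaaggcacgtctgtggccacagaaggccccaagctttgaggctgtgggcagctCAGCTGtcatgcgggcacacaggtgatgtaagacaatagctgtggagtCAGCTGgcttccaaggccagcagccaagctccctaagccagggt
Chrng: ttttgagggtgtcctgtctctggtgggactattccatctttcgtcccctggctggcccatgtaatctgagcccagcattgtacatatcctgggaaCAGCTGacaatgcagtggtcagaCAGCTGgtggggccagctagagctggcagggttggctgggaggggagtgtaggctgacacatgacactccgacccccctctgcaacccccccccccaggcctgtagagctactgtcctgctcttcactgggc
Mylpf: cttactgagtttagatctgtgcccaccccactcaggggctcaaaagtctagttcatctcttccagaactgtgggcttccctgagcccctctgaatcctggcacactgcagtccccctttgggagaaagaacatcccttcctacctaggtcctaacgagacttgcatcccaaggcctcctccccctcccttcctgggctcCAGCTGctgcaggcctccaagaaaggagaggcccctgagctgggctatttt
The box occurs 92 and 44 bases before the start of Chrna1, 155 and 132 bases before that of Chrng and 51 bases before that of Mylpf. Of 32 muscle structural genes with a listed promoter, 16 (50%) held it at any listed start, against 14.7% of 27025 genes and 5 of 17 bone matrix genes (29.4%). The letters TGTGGT or ACCACA were in 5 of the 32 muscle promoters (15.6%). Chrna1 went from 2.87, 7.27 and 2.61 CPM to 34.6, 33.4 and 31.0 CPM, and Mylpf from 16.6, 61.7 and 15.7 CPM to 153, 141 and 126 CPM. Both were highest among the E12.5 libraries in replicate 2, and both lay higher in all E14.5 libraries. Chrng reached 21.7 ± 3.16 from 3.04 ± 1.22 CPM.

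**Figure D5:**
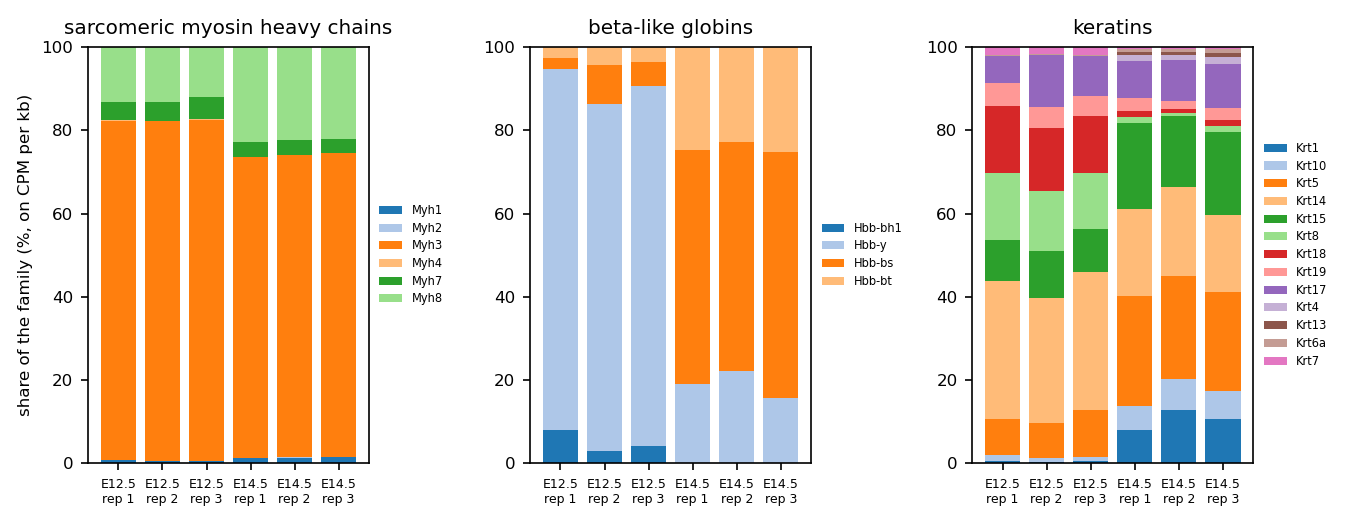
Share of each member within 3 gene families (vertical axis, percent of the family's CPM per kilobase of transcript) in each of the 6 libraries (bars). At E14.5 Myh8 takes 22.4% of sarcomeric myosin heavy chains from 12.7%, Hbb-bs 56.7% of beta-like globins from 5.87%, and Krt5 25.0% of keratins from 9.36%.

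Keratins and other genes of the layers above the basal epithelium rose, and the simple keratins Krt8 and Krt18 fell. Of 33 tested suprabasal genes, 28 were higher and 1 lower (median 2.44), while of 20 basal or general epithelial genes 8 were higher and 6 lower (median 0.14). Krt1, the keratin of the first layers above the basal cells of skin, went from 2.34, 3.60 and 3.17 CPM to 143, 381 and 253 CPM. The spread among the E14.5 libraries was wide, yet the lowest was far above every E12.5 value (log2 difference 6.41, SE 0.32). Its partner Krt10 reached 138 ± 49.2 from 7.45 ± 1.05 CPM. Krt4 and Krt13, the pair of oral lining epithelium, reached 29.5 from 0.0789 and 12.6 from 0.0707 CPM. Dmkn went from 0.0935, 0.0305 and 0 CPM to 30.2, 60.8 and 53.3 CPM, and Krtdap, another keratinocyte differentiation gene, reached 24.8 from 0.162 CPM. Dsg1a, a desmoglein of upper layers with a near-identical copy (Dsg1b) between which reads may be split, reached 69.6 from 0.467 CPM.

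The basal and simple keratins did not move as one. Krt5, the basal keratin of stratified epithelia, rose from 38.9, 84.4 and 72.0 CPM to 425, 657 and 508 CPM. Krt8, of simple epithelium and periderm, fell from 65.2, 130.3 and 77.8 CPM to 19.9, 16.6 and 24.7 CPM, and its partner Krt18 fell from 68.4 to 17.6 CPM. Neither set overlapped, and Krt8 was highest in E12.5 replicate 2, which was also the highest E12.5 library for Krt5. Per length, Krt8 went from 14.7 ± 1.2% to 1.13 ± 0.38% of 13 keratins, Krt5 from 9.36 ± 1.57% to 25.0 ± 1.4% and Krt15 from 10.5 ± 0.73% to 19.3 ± 2.0%. Krt14, the basal partner of Krt5, was the most abundant keratin at E12.5, with 32.2 ± 1.8% of the family, and held 20.2 ± 1.6% at E14.5. Its level rose from 172 to 334 CPM, a call lost without E14.5 replicate 2 (adjusted p = 0.0538). Krt19, of simple epithelium and other layers, was called higher at 39.1 from 25.2 CPM though its groups overlapped, and the call was lost without E12.5 replicate 1 or E14.5 replicate 3 (adjusted p = 0.0518 and 0.0521). Krt7, also of simple epithelium, stood at 24.7 and 19.4 CPM (adjusted p = 0.154). Epcam, an adhesion protein of simple epithelium, fell from 139.9 to 57.0 CPM. The genes that mark epithelium as a whole were not called: Trp63, the gene of p63, stood at 95.6 ± 8.42 and 90.3 ± 10.7 CPM (adjusted p = 0.552) and Cdh1 (E-cadherin) at 122 ± 33.5 and 106 ± 12.9 CPM (adjusted p = 0.361).

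Most hair follicle genes were higher as well. Of 22 tested, 17 were higher and 1 lower (median 2.48). Krt25, a keratin of the inner root sheath, had no count in the E12.5 libraries and 3.83, 10.2 and 17.7 CPM in those of E14.5, at least 349.8-fold higher. Krt71 had 0, 0.0305 and 0 CPM before and 3.83, 11.9 and 26.3 CPM after, and Tchh (trichohyalin) 1.71, 1.59 and 1.31 CPM before and 10.4, 13.4 and 29.5 CPM after. In all 3 genes E14.5 replicate 3 was the highest and replicate 1 the lowest. Krt73 was at least 199-fold higher. The exception was Shh, the signal of placodes and palatal ridges, which fell from 15.3, 17.3 and 13.4 CPM to 2.30, 4.13 and 3.40 CPM.

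Mast cell genes showed the highest median of all groups, close to the 3.01 of bone matrix. Of 14 tested, 11 were higher and 1 lower (median 3.07). Tpsb2 and Mcpt4 had no count at E12.5 and could only be called higher, which raises such a median. Tpsab1, Fcer1a, Mrgprb1 and Mrgprb2 had too few counts to test. The summed level of all 18 listed genes went from 61.2 to 72.8 CPM at E12.5 to 187.3 to 251.0 CPM at E14.5. Cpa3, the carboxypeptidase of mast cell granules, went from 0.655, 0.764 and 0.348 CPM to 66.9, 48.6 and 60.5 CPM. Cma1, the chymase, went from 0.0312, 0.122 and 0 CPM to 39.4, 27.2 and 32.6 CPM. Each was higher in all E14.5 libraries, by 6.64 (SE 0.26) and 9.25 (SE 0.46) on the log2 scale. Mcpt4, the protease of connective tissue mast cells, was at least 127-fold higher, and Hdc, which makes histamine, reached 19.2 from 0.585 CPM. Tpsb2, which has a near-identical copy in Tpsab1, went from 0 in each E12.5 library to 14.7, 9.31 and 13.4 CPM. The tested genes that did otherwise are ones that other cells share. Kit, the stem cell factor receptor, stood at 29.1 and 32.9 CPM (adjusted p = 0.321). Gata1, also listed among the red cell genes, was not called, and Gata2 fell from 22.5 to 12.7 CPM.

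Macrophage genes were also higher, with a smaller median. Of 19 tested, 14 were higher and 0 lower (median 0.85). F13a1 and Mrc1, markers of tissue-resident macrophages, reached 51.4 ± 3.67 from 6.75 ± 1.44 CPM and 71.1 ± 7.00 from 17.6 ± 0.737 CPM. The receptor Csf1r reached 47.9 ± 2.44 from 20.1 ± 0.714 CPM. Each was higher in every E14.5 library, with log2 differences of 2.93, 2.01 and 1.25. C1qa, a complement component of macrophages, stood at 9.93 ± 1.23 and 13.1 ± 0.578 CPM and was not called (adjusted p = 0.0665). Among other leukocyte genes Ptprc, the pan-leukocyte CD45, reached 10.7 from 3.83 CPM and Rag1, the recombinase of lymphocytes, fell from 9.54, 4.09 and 7.20 CPM to 1.87, 1.25 and 1.47 CPM.

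Most genes of the pigment cell, a neural crest derivative, were higher. Of 12 melanocyte genes, 9 were higher and 1 lower (median 2.43). Dct, an enzyme of melanin synthesis, went from 0.592, 0.611 and 0.465 CPM to 10.6, 8.54 and 8.43 CPM, and Pmel, the fibril protein of melanosomes, from 0.717, 0.886 and 0.668 CPM to 9.77, 9.37 and 8.87 CPM. Tyr, the rate-limiting enzyme of melanin synthesis, reached 2.64 from 0.102 CPM. Pigment genes were present at a low level in every E14.5 library. Sox10, the factor of crest progenitors and glia, fell from 32.9, 24.9 and 32.9 CPM to 12.8, 16.2 and 16.5 CPM. Of 22 Schwann cell genes, 11 were higher and 3 lower (median 0.37), and the 11 became 6 without E12.5 replicate 1 or E14.5 replicate 3 and 7 without E14.5 replicate 1 or 2. Pmp22, a myelin protein that fibroblasts share, went from 50.5 to 108 CPM and Mag, a myelin glycoprotein, from 0.111 to 1.26 CPM, while Cdh19, a marker of Schwann cell precursors, fell from 10.7 to 4.07 CPM.

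Genes of the vessel wall had a larger median difference than endothelial genes. Of 14 pericyte and smooth muscle genes, 11 were higher and 0 lower (median 1.95). The pericyte marker Pdgfrb was not called, nor were Notch3 and Cnn1. The higher genes included Des, which is also counted among the muscle structural genes. Acta2, smooth muscle actin, which myoblasts also make, went from 44.2, 75.4 and 41.3 CPM to 260.0, 249 and 224 CPM. Cspg4, the NG2 proteoglycan of pericytes, reached 68.5 ± 5.60 from 17.2 ± 3.37 CPM, Ndufa4l2 11.0 ± 1.97 from 1.23 ± 0.636 CPM and Myh11, the smooth muscle myosin, 7.63 ± 1.49 from 1.54 ± 0.582 CPM. All 3 E14.5 libraries exceeded all 3 E12.5 libraries for each. Of 25 endothelial genes, 14 were higher and 2 lower (median 0.54), and without E12.5 replicate 2, the library with the lowest Kdr, the 14 became 9. Lyve1, a receptor of lymphatic endothelium and resident macrophages, had the largest rise there, from 0.748, 0.58 and 0.842 CPM to 12.5, 9.95 and 11.2 CPM. Prox1, which specifies lymphatic vessels, stood at 15.7 and 16.1 CPM (adjusted p = 0.909).

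Embryonic globins fell and the adult beta-like chains rose. Of 17 tested red cell genes 3 were higher and 8 lower (median -0.87). Hbb-y, the main embryonic beta-like chain, went from 2299, 2201 and 1839 CPM to 355, 210.0 and 158 CPM, and Hbb-bh1 from 205, 75.2 and 87.6 CPM to 2.63, 1.70 and 1.03 CPM. Hba-x, the embryonic alpha-like chain, fell from 514 to 23.2 CPM. The adult chain Hbb-bs went from 69.6, 241 and 122 CPM to 1043, 521 and 595 CPM, with E14.5 replicate 1 highest. Per length, Hbb-y went from 85.5 ± 1.8% to 18.8 ± 3.2% of the 4 beta-like chains and Hbb-bs from 5.87 ± 3.28% to 56.7 ± 2.1%, with Hbb-bt, a near-identical copy of Hbb-bs, taking 24.3 ± 1.3%. The adult alpha chains did not rise with them: Hba-a1 stood at 468 ± 102 and 606 ± 283 CPM (adjusted p = 0.251), and Hba-a2, a near-identical copy between which and Hba-a1 reads may be split, fell from 42.0 to 8.85 CPM (adjusted p = 6.28e-05). With the length trend removed Hba-a1 was called higher (log2 difference 1.18, adjusted p = 0.00458), as it was with no filter beyond 1 count (0.36, adjusted p = 0.00808). All globins together took 0.373 ± 0.036% of gene counts at E12.5 and 0.220 ± 0.095% at E14.5. Slc4a1, the anion exchanger of the red cell membrane, fell from 56.3 to 14.1 CPM.

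Genes that pattern the palate and jaw fell more often than they rose. Of 23 palate genes, 12 were lower and 4 higher (median -0.31), and of 26 jaw patterning genes 13 were lower and 8 higher (median -0.34). Foxf2, a hedgehog-dependent factor of the palatal mesenchyme, went from 64.8, 65.3 and 101 CPM to 8.36, 7.52 and 11.7 CPM. Tbx22, the gene mutated in X-linked cleft palate, went from 57.9, 42.4 and 38.4 CPM to 6.22, 5.28 and 7.17 CPM. Each E14.5 library held far less of both than any E12.5 library (log2 differences -3.06 and -2.89, SE 0.30 and 0.21). Foxf1, Foxe1, Sim2 and Pax9, all transcription factors needed for the palate, fell, with log2 differences of -2.45, -2.06, -1.78 and -1.46. Osr2, a driver of shelf growth, fell from 95.1 to 59.4 CPM, a call lost with the length trend removed (adjusted p = 0.0847), while its relative Osr1 rose from 56.0 to 91.9 CPM. The ligands were mixed. Those that rose included Wnt5a from 77.5 to 181 CPM and Tgfb3, needed for fusion of the palatal edges, from 34.6 to 52.0 CPM. Shh fell, as given for the hair follicle, Bmp4 and Efnb2 were not called (adjusted p = 0.109 and 0.891), and Efnb1 was lower at 94.8 from 109 CPM, a call lost without E12.5 replicate 3 or any 1 E14.5 library (adjusted p = 0.0717 to 0.11) and with the length trend removed (0.0596).

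Among the jaw genes, Six2, a factor of undifferentiated head mesenchyme, went from 219, 262 and 255 CPM to 59.5, 58.1 and 66.8 CPM. Barx1, which marks the proximal jaw and molar mesenchyme, fell from 220.1 to 68.0 CPM, and the LIM factors Lhx8 and Lhx6 from 118 to 38.9 and from 84.8 to 30.8 CPM. The paired-like genes of the frontonasal and maxillary mesenchyme parted, with Alx1 falling from 60.1 to 25.3 CPM and Alx4 rising from 52.6 to 96.2 CPM. The Dlx genes parted too: Dlx2, expressed along the whole arch, fell from 37.4 to 17.8 CPM, and Dlx3, Dlx5 and Dlx6 rose by 1.19, 1.01 and 1.30 on the log2 scale. Tbx15, a mesenchymal T-box factor, rose from 39.0 to 74.2 CPM, a call lost with E12.5 replicate 2 and E14.5 replicate 1 both left out (adjusted p = 0.0514). Prrx1, which marks the mesenchyme as a whole, stood at 507 ± 68.2 and 435 ± 30.7 CPM (adjusted p = 0.172).

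Tooth genes were evenly divided, with 7 of 17 higher and 7 lower (median 0.13). The lower ones included the mesenchymal or early epithelial factors Pax9, Msx1, Barx1, Lhx6, Lhx8 and Fgf9; of these, Msx1 was not called without E12.5 replicate 1 or 2 (adjusted p = 0.0517 and 0.111), without E14.5 replicate 1 or 3 (0.162 and 0.0952) or with the length trend removed (0.136). The higher ones included Fgf3 and Fgf4, signals of the enamel knot, the epithelial centre that shapes the crown. Not every signal rose: Fgf9 was among the lower genes, and Shh, outside this list, fell as given for the hair follicle. Fgf4 went from 0.0624, 0.0916 and 0.0871 CPM to 1.23, 2.21 and 0.877 CPM, and Fgf3 from 0.192 to 1.76 CPM. Both were low at either stage, with E14.5 replicate 2 highest. Irx1 reached 27.2 from 9.10 CPM, and Wnt10a, in which mutations cause missing teeth, 5.13 from 1.76 CPM. The enamel and dentin genes Amelx, Enam and Dspp had too few counts to test.

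Most forebrain and olfactory genes fell, from E12.5 levels that differed between libraries. Of 16 tested forebrain and olfactory genes, 11 were lower and 2 higher (median -2.16). The sum over all 21 listed genes was 89.8 to 96.5 CPM at E14.5, below the lowest E12.5 library. Otx2, of the anterior brain and olfactory region, had 3.12, 28.3 and 16.2 CPM at E12.5 and 0.49, 0.8 and 1.11 CPM at E14.5. Sp8, a factor of the olfactory pit and face, had 2.00, 18.3 and 11.8 CPM and then 0.214, 0.416 and 0.542 CPM. In both of these E12.5 replicate 1 was the lowest at its stage and still above every E14.5 library. Fezf1 (0.249, 13.7 and 6.01 CPM at E12.5) and Neurod1 (0.249, 10.4 and 5.20 CPM) showed the widest spread, and limma-voom called neither (adjusted p = 0.112 and 0.114). Insm1 fell from 17.3 to 0.924 CPM and Six3 from 13.3 to 1.28 CPM. How much the amount of adjoining neural tissue in each library has to do with these falls was not tested.

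General neuronal genes did not follow. Of 25, 7 were lower, 3 higher and 15 not called, and the sum ran from 223.8 to 588.1 CPM at E12.5 and from 278.7 to 579.3 CPM at E14.5. Tubb3, the neuronal tubulin, had 14.6, 102 and 55.1 CPM and then 21.7, 13.1 and 45.8 CPM, with the groups overlapping (adjusted p = 0.135). Ntrk3, the receptor for neurotrophin 3, rose from 1.90, 4.64 and 4.62 CPM to 28.4, 24.9 and 33.1 CPM; it is also made outside neurons. The liver gene Afp had 27.6, 1.16 and 0.378 CPM at E12.5 and 0.153, 0.064 and 0.0258 CPM at E14.5. Its large fall was largest against E12.5 replicate 1, and limma-voom did not call it (adjusted p = 0.111). Of 16 liver and plasma genes only 7 could be tested, with 4 lower and 2, Alb and Cubn, higher (median -3.05). Without E12.5 replicate 3 those 2 were not called. The sums over all 16 overlapped, at 2.56 to 43.6 CPM at E12.5, highest in replicate 1, and 3.89 to 5.95 CPM at E14.5.

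The Wnt pathway carries signals through frizzled receptors to TCF and LEF factors, under many secreted inhibitors. Of 36 genes, 20 were higher and 8 lower (median 0.63). Among ligands, Wnt3 went from 0.842, 1.47 and 2.00 CPM to 10.9, 10.01 and 8.59 CPM and Wnt10b from 4.33, 3.82 and 3.31 CPM to 20.3, 22.6 and 17.4 CPM. Among inhibitors, Wif1 went from 5.33, 10.2 and 6.13 CPM to 62.0, 80.4 and 55.5 CPM. These 3 genes were higher in all E14.5 libraries. The ligand Wnt5b was lower at 9.22 from 12.6 CPM, a call lost without E12.5 replicate 3 or E14.5 replicate 1 or 3 (adjusted p = 0.0529 to 0.0982) and with the length trend removed (0.0874), and Wnt4, Wnt9b and Wnt11 were not called (adjusted p = 0.692, 0.29 and 0.436). Sfrp4 reached 9.16 from 0.586 CPM and Dkk1 17.6 from 6.13 CPM, while the inhibitors Frzb and Sfrp1 fell from 139 to 63.4 and from 213 to 122 CPM and Sfrp2 was not called (adjusted p = 0.0961). The R-spondins, which amplify the signal, and their receptors went both ways. Rspo3 fell from 35.6 to 13.9 CPM, Rspo2 from 28.0 to 13.9 CPM and the receptor Lgr5 from 81.6 to 35.6 CPM, while Rspo1 rose from 7.32 to 14.1 CPM and Lgr6, a related receptor of skin, from 6.74 to 26.8 CPM. Lgr4 stood at 82.8 and 96.8 CPM (adjusted p = 0.0861). Tcf7, an effector, reached 34.0 from 8.52 CPM, and Lef1 was also called higher. The feedback targets were mixed. Nkd1 and Sp5 were called higher, and Notum was not called. Axin2, a general target, stood at 38.5 ± 5.59 and 38.5 ± 3.19 CPM (adjusted p = 0.988).

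Among the hedgehog ligands, Shh fell, as given above, and Ihh, the form made by cartilage and bone, rose from 0.312, 0.153 and 0.29 CPM to 2.97, 3.13 and 3.25 CPM, a level close to that of Shh at E14.5. Dhh, the third ligand, was not called (adjusted p = 0.0732). The co-receptors Cdon and Gas1 rose from 64.8 to 194 and from 93.0 to 176 CPM. The targets and transducers Gli1, Ptch1 and Smo were not called (adjusted p = 0.842, 0.121 and 0.919), and of 16 genes of the pathway 6 were higher and 4 lower.

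In the BMP and TGF-beta pathways 12 of 32 genes were higher and 7 lower (median 0.10). The BMP antagonists Grem1 and Chrdl1 rose from 4.76 to 13.02 and from 16.0 to 32.4 CPM, and the ligand Bmp6 from 9.90 to 20.9 CPM. The direct targets Id1, Id2 and Id3, inhibitors of helix-loop-helix factors, fell, with log2 differences of -0.71, -0.996 and -0.57. With the length trend removed Id2 stayed lower (adjusted p = 0.000282), and Id1 and Id3 were not called (adjusted p = 0.214 and 0.0937).

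Most insulin-like growth factor and imprinted growth genes went up. Of 19, 13 were higher and 2 lower (median 0.82). Igf1, the growth factor of later fetal growth, went from 85.2, 91.6 and 109 CPM to 451, 444 and 493 CPM (log2 difference 2.28, SE 0.16). Dlk1, an imprinted inhibitor of adipocyte formation, went from 114, 131 and 139.9 CPM to 499, 406 and 449 CPM. Igf2r, which clears IGF2, reached 565 ± 50.2 from 209.7 ± 24.6 CPM. All 3 were higher in each E14.5 library. The imprinted zinc finger genes Plagl1 and Peg3 reached 1016 from 355 and 1265 from 539.7 CPM, and the imprinted noncoding RNA Meg3 200.5 from 70.5 CPM. Igfbp5, a binding protein, fell from 2232 to 1479 CPM, a call lost without E12.5 replicate 2 or 3 (adjusted p = 0.0522 and 0.055).

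Genes of cell division were slightly lower. Of 25 mitosis genes 20 were lower and 0 higher (median -0.46), and of 28 replication genes 20 were lower and 0 higher (median -0.36). Plk1, a mitotic kinase, went from 75.2, 72.2 and 76.7 CPM to 47.6, 44.2 and 43.8 CPM, a log2 difference of -0.72. Mcm2, of the replicative helicase, went from 202, 198 and 192 CPM to 159, 162 and 148 CPM. Neither pair of groups overlapped, and the changes were under 2-fold. Mki67, the proliferation marker, stood at 572 ± 68.6 and 553 ± 29.4 CPM (adjusted p = 0.714). With the length trend removed 19 mitosis and 17 replication genes were still lower. Inhibitors of the cycle did not move as one. Of 17 tested genes of cell cycle exit, 7 were higher and 4 lower (median 0.22). With the length trend removed 9 were higher and 3 lower. Cdkn1a, the p21 inhibitor of the cycle, rose from 10.3, 22.1 and 12.98 CPM to 58.7, 62.6 and 57.0 CPM. The inhibitor Cdkn2c was also higher, Cdkn1b was lower, and Cdkn1c, Cdkn2b and Cdkn2d were not called.

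Genes of the early embryonic growth programme fell further. Of 17, 13 were lower and 1 higher (median -0.81), and the counts were the same with the length trend removed. Hmga2, a chromatin protein of growing embryonic tissue and a target of let-7 microRNAs, went from 489, 339.8 and 451 CPM to 133, 131 and 117 CPM (log2 difference -1.75, SE 0.13). Lin28b, which blocks let-7, fell from 7.88 to 2.80 CPM. Mycn, a growth-promoting factor, fell from 34.3 to 16.9 CPM, and Sall4, of pluripotent and early embryonic cells, from 1.90 to 0.302 CPM. Igdcc4 was the exception, at 68.0 ± 11.2 and 165 ± 10.5 CPM. Ribosomal protein genes, which are short, were lower in 53 of 77 and higher in 3 (median -0.74), with medians of -1.35 for the 10 of at most 500 bases and -0.58 for the 27 over 1000 bases. Tmsb10, a short actin-binding message, went from 1597, 1493 and 1089.9 CPM to 287, 258 and 247 CPM and was lower with the trend removed as well (log2 difference -1.60). The mitochondrial genes mt-Cytb, mt-Nd1 and mt-Nd4 were lower, with log2 differences of -0.56, -0.67 and -0.61, and none was called with the trend removed (adjusted p = 0.498, 0.457 and 0.062); the call of mt-Cytb was also lost without E14.5 replicate 1 (adjusted p = 0.0622).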

How the data were processed

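Poly-A RNA of the mouse maxillary prominence was sequenced at 4 stages. The deposited files hold whole-number read counts per Ensembl gene, not normalised. The tools named in the submitters' processing notes are STAR 2.7.3a, HTSeq 0.12.4 and FastQC, with the mm10 genome; which annotation was counted, with what strand option and which filters, is not given in the sources used here. All 5 closing entries of each file, which name no gene, were left out of library sizes and tests (16.8 to 18.6% of the 6 libraries). Of 53801 identifiers, 53706 were matched to GENCODE M21.

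Genes were filtered with filterByExpr (minimum count 10) and scaled by TMM. The test was edgeR 4.0.16 (R 4.3.3) quasi-likelihood over all 12 libraries, which share 1 estimate of the spread with 8 residual degrees of freedom, with the contrast E14.5 minus E12.5 and Benjamini-Hochberg adjustment over 18365 genes; a call is an adjusted p under 0.05. The standard error is the log2 fold change divided by the square root of F. Levels are in CPM of the TMM-scaled library size, as mean ± SD over 3 libraries. The code was tested on simulated data. A gene without counts at E12.5 has a lower bound against 3 counts over the stage, which covers counting error only; genes with 1 to 3 counts there have no fold. Depth was 28294837 to 33941430 counts a library. Within a stage no 2 libraries agreed within sampling noise (chi-square per degree of freedom of at least 4.38).

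The members and gene lists were chosen with earlier results of these data known. Genes were named by rule: the 10 largest rises and falls (called, at least 5 CPM at the higher stage, no overlap), the 8 largest gains and losses in CPM, and of each list the 5 called members that changed most, the 3 most abundant and members against the trend; cell type markers were added, and other list members were named after their values were seen for their known role. Some genes that fall under the rule are not reported here. Reads of overlapping genes cannot be told apart without strand: among the named genes Smpd3 overlaps Prmt7, Pmel overlaps Cdk2 and Dgka, Csf1r overlaps Hmgxb3, Neurod1 overlaps Cerkl, Pax9 overlaps Slc25a21, Mfap4 overlaps Mapk7, Ndufa4l2 overlaps Shmt2, Bmp6 overlaps Txndc5, Gli1 overlaps Arhgap9, and Otx2, Runx2, Sox5, Six3, Prox1, Krt5, Krt8, Foxf2, Shh and Col3a1, among others, overlap noncoding genes. Alternatives were DESeq2 1.42.0, limma-voom (limma 3.58.1), other scalings and filters, the 6 libraries alone, a 2-fold minimum, a replicate block, libraries left out and a lowess on transcript length. Promoters were read from RefSeq (GRCm38.p6). A whole genome and proteins were not used here.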

Additional observations from a re-analysis of the deposited data

How the results depend on the processing

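The depth of each library limits only genes of a few counts, and the number of libraries, 3 a stage, limits the rest. The genes called higher numbered 3568 to 4461 and those called lower 3270 to 4305 when 1 library was left out, against 4233 and 4413. Of 778 single genes followed, between 35 and 71 lost their call without 1 library, and none reversed. The replicate numbers share only a number: correlations of same-numbered libraries were 0.04, -0.119 and 0.027, not every library correlated best with its own number, and the fit with the replicate block called 4307 higher and 4436 lower, with 5 neuronal genes higher in place of 3 and no other list count moved by over 1.5 times. With a minimum change of 2-fold tested, 1034 genes were higher and 326 lower, against 2033 and 1036 past 2-fold without it. The cause of the differences below was not tested.

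With E12.5 replicate 2 and E14.5 replicate 1 both left out, 2924 genes were lower in place of 4413. Counts then moved for endothelium (6 higher, 1 lower), other leukocytes (3 higher), neurons (4 lower), forebrain (1 higher), liver (1 higher, 2 lower), adipose (1 lower), gland and airway (3 lower), ribosome biogenesis (0 higher, 5 lower), IGF (1 lower), cholesterol synthesis (1 lower in place of 8), glycolysis (2 lower) and suprabasal epithelium (0 lower). With the length trend removed, 606 genes were lower by at least 2-fold in place of 1036, and counts moved for fibrous matrix, suprabasal epithelium and endothelium (0 lower in each), other leukocytes (9 higher), neurons (5 higher), ribosome biogenesis (0 higher, 4 lower), antigen and complement (16 higher in place of 10), cholesterol (4 lower) and glycolysis (14 higher, 2 lower). The median of all genes moved from -0.0095 to 0.103 there, and 6 genes changed sign, to 0.60 (B2m), 0.28 (Cdkn2d), 0.012 (Fbl), 0.70 (Mbp), 0.64 (Pf4) and 0.030 (mt-Nd2). With the 6 libraries alone, counts moved for suprabasal epithelium (0 lower), neurons (4 lower), liver (2 lower), cell cycle exit (2 lower), ribosome biogenesis (0 higher) and glycolysis (2 lower). With no filter beyond 1 count, they moved for suprabasal epithelium (2 lower), neurons (10 higher), liver (7 lower), gland and airway (5 higher), ribosome biogenesis (0 higher) and BMP and TGF-beta (11 lower). With at least 1 CPM in 3 libraries, liver genes numbered 1 higher and 0 lower. By limma-voom 1 forebrain gene was higher and 1 liver gene lower. Without globin and mitochondrial genes 1 globin list member was higher and 4 lower, without the 50 most abundant genes 1 IGF gene was lower, and by DESeq2 or its size factors 2 ribosome biogenesis genes were higher.

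Leaving out 1 library gave ranges of 9 to 14 cartilage genes higher, 0 to 1 suprabasal lower, 9 to 16 endothelial higher, 1 to 2 mast cell lower, 3 to 5 other leukocyte higher, 6 to 9 Schwann cell higher in place of 11, 3 to 6 neuronal higher, 1 to 2 forebrain higher, 0 to 2 liver higher and 2 to 5 lower, 3 to 5 gland and airway higher, 1 to 4 cell cycle exit lower, 0 to 2 ribosome biogenesis higher and 4 to 10 lower, 0 to 3 IGF lower, 0 to 1 antigen and complement lower, 3 to 9 cholesterol lower and 2 to 4 glycolysis lower.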

Other observations

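Many hormone receptor and complement genes were also higher at E14.5. Of 21 hormone and nuclear receptor genes, 11 were higher and 3 lower (median 0.46). The glucocorticoid receptor gene Nr3c1 went from 38.0, 42.0 and 44.3 CPM to 98.0, 101 and 90.5 CPM, and the mineralocorticoid receptor gene Nr3c2 from 1.22, 1.99 and 1.95 CPM to 9.31, 10.8 and 9.57 CPM. Both were higher in each E14.5 library. Hsd11b2, which inactivates glucocorticoid, fell from 5.92, 3.79 and 4.41 CPM to 0.674, 0.608 and 0.825 CPM. Zbtb16, known to respond to glucocorticoid, reached 7.45 from 1.80 CPM, and Tsc22d3, another such gene, fell from 66.6 to 44.4 CPM. Of 23 antigen presentation, interferon and complement genes, 10 were higher and 0 lower (median 0.44, edgeR; 0 were lower at an unadjusted p under 0.05, by DESeq2 or by limma-voom). C3 and C4b, components of the complement cascade, reached 2.95 from 0.454 and 1.86 from 0.12 CPM. The interferon-responsive gene Ifitm3 stood at 21.5 ± 5.57 and 25.2 ± 1.75 CPM (adjusted p = 0.215).

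Most tested genes of fat cells and lipid handling rose. Of 13 tested, 9 were higher and 2 lower (median 1.74). Car3, a carbonic anhydrase of fat and muscle, went from 3.15, 1.44 and 0.726 CPM to 53.3, 57.2 and 39.6 CPM. Cebpa, a factor of adipocytes and keratinocytes, went from 7.05, 10.6 and 9.26 CPM to 29.4, 47.9 and 36.4 CPM. Pparg, the adipocyte master regulator, stayed low, at 0.394 ± 0.0408 and 3.07 ± 0.945 CPM, though higher in every E14.5 library. Fabp4, Lpl and Cd36, which bind, release or take up fatty acids, rose by 2.74, 1.62 and 2.08 on the log2 scale. Both lower genes were regulators of the brown fat lineage, Ebf2 from 55.9 to 36.0 CPM and Prdm16 from 24.4 to 14.9 CPM. Adipoq, Plin1, Plin4, Cidec and Lep had too few counts to test. Of 10 gland and airway genes, 3 were higher and 5 lower: Foxa2, of endoderm and airway epithelium, fell from 2.00, 2.57 and 1.77 CPM to 0.214, 0.192 and 0.0774 CPM, and Bpifa1, a secreted airway protein, had 0, 0.0305 and 0.029 CPM and then 4.44, 1.41 and 6.99 CPM. Among glycolysis genes Ldhb, a lactate dehydrogenase subunit, fell from 263, 243 and 176 CPM to 70.6, 78.3 and 73.7 CPM, and Pdk1, which diverts pyruvate from the mitochondrion, rose from 61.4 to 102 CPM. Fgf8, a signal of early facial ectoderm, was at the edge of detection at E14.5, with 6.83, 3.67 and 2.67 CPM before and 0.0919, 0.096 and 0 CPM after.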
